A study of Arabidopsis thaliana with 6 samples.

Results

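The WRKY family of plant transcription factors was followed through stems in which auxin signalling was blocked for 3 h. The 52 genes described here were taken by locus identifier from a fixed list of WRKY members, out of 33316 genes in the tables, and they were selected on family membership with the DEX against Mock read counts of these libraries already known, with no threshold stated. The counts below are therefore a description of these genes and no independent test of the family. Another 20 genes carry a WRKY name in the reference annotation and were not on the list. Of those, 6 had enough reads to be tested, and edgeR called 0 of them, with 1 at an unadjusted p below 0.05 and 0 called by DESeq2 or limma-voom. Over all tested genes edgeR called 11.9%, so 0 of 6 is near that share and marks no contrast with the listed genes.

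The samples were second internodes of Arabidopsis thaliana stems from plants labelled p35S:Myc-GR-bdl, harvested at 15 to 20 cm height after 3 weeks of short days (8 h light) and later long days (16 h light). The transgene drives, from the constitutive viral 35S promoter, a stabilised form of the AUX/IAA repressor BODENLOS fused to the glucocorticoid receptor, which holds the protein outside the nucleus until dexamethasone is given. There were 3 Mock libraries and 3 DEX libraries (15 µM dexamethasone), both from the same line. For short treatments the paper describes a headfirst dip, then watering with dexamethasone or mock solution up to harvest. For second internodes the RNA methods of the study describe biological replicates, each a pool of 3 plants, and p-values measure the spread between such pools. Titles and source names give this genotype and were followed, although the text on growth speaks of Col-0 wild type. The paper gives Columbia (Col-0) as the accession of its plant lines, apart from a mutant that is not among these samples. No library without the transgene was analysed here, so responses to dexamethasone itself and to GR-bdl cannot be told apart. In whole internodes, fewer cells of a type and less RNA per cell cannot be told apart either.

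WRKY proteins bind W-boxes, short promoter elements with the core TTGAC, through a domain that joins a conserved heptad to a zinc finger. Group I members carry a pair of these domains, group II members carry one, divided into IIa to IIe by sequence, and group III members have a zinc finger of the C2HC type. Many are induced within minutes by pathogens, wounding or salicylic acid, act downstream of MAP kinase cascades, and bind the promoters of other WRKY genes as well as their own. A smaller number act in development, among them WRKY12 and WRKY13 in the stem. In the translated reference sequences, all 10 group I members held 2 heptad copies, and the 10 group III members were those with the C2HC finger. The heptad was in a variant form in WRKY50 and WRKY51.

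The 6 libraries held 30564459 to 37761257 reads on named genes, and 19598 genes passed the filter on low counts. Library identity was visible beside treatment: the first principal component, which separated DEX from Mock, took 63.5% of the variance, and the second, which separated library 1 from library 3 in both groups, took 20.4%. Stem markers were all detected, with a summed level of 4079 to 4376 CPM (gene reads scaled to library size by TMM) in Mock and 3432 to 4459 CPM in DEX. That sum is mostly the 3 secondary wall cellulose synthase genes CESA4, CESA7 and CESA8, which were not called. Of the other markers, the cambium gene WOX4 (-1.89 ± 0.17, adjusted p = 0.000492) and the fibre wall regulator NST3 (-0.81 ± 0.14, adjusted p = 0.00817) fell. PXY and SUC2 had DEX values entirely below Mock without passing (-0.52 ± 0.21, adjusted p = 0.189, and -0.50 ± 0.16, adjusted p = 0.0873), and APL had them above (0.44 ± 0.12, adjusted p = 0.0515). The part of these cell-type markers in the WRKY results was not tested. The 9 markers of root, pollen, seed and flower summed to 1.64 to 1.86 CPM in Mock and 0.892 to 2.91 CPM in DEX, with 2 of them, RHD6 and CRU3, at 0 in every library. Reads on BODENLOS (IAA12), to which the transgene may contribute, averaged 1502 CPM in Mock and 1461 CPM in DEX, a difference of -0.04 ± 0.25 on the log2 scale (SE, n = 3 against 3, edgeR adjusted p = 0.952).

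Of the 52 members, 48 were tested, and 19 differed between DEX and Mock at an adjusted p below 0.05 (edgeR quasi-likelihood test, Benjamini-Hochberg over all tested genes), 12 higher and 7 lower in DEX. That is 39.6% of the tested members, beside 11.9% of all tested genes, of which 6.38% were higher and 5.5% lower. The fitted change reached 2-fold in 13 of the 19. WRKY67, among the 12 called higher, passed the filter through its DEX libraries alone. Where at least 1 CPM in 3 libraries was required, 11 members were called higher. The DEX values lay entirely on one side of the Mock values in 26 members, above in 16 and below in 10, beside 28.3% of all tested genes (13.9% above and 14.3% below). The median log2 change over the tested members was 0.30, against -0.01 over all tested genes. Of the 19 calls, 9 held in every alternative fit that could be made for them, and the other 10 were lost when at least one library was left out. Without Mock library 2, whose absence lowered the calls over all genes most, 5 members were called higher and 4 lower, and the calls over all genes fell to 615 and 690. Without DEX library 2, 10 members were called higher and 4 lower.

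**Figure D1:**
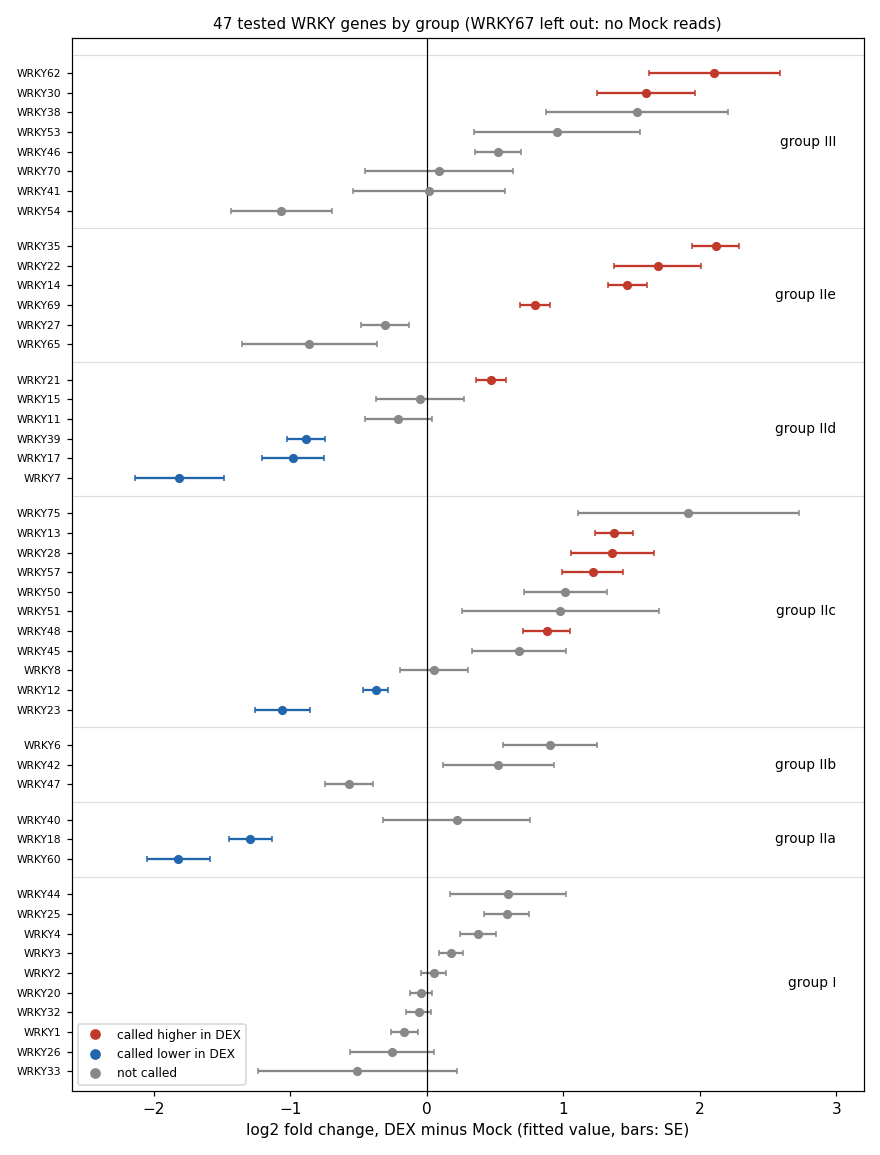
Fitted log2 fold change, DEX minus Mock, of 47 tested WRKY genes arranged by WRKY group, with bars for the standard error (3 libraries a group). Called genes are red (higher) and blue (lower): the called genes of IIa and most of those of IId lie to the left, and the called genes of IIe and III lie to the right. WRKY67, with 0 reads in Mock, is not drawn.

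The direction of the calls differed from group to group in number. In group IIa 2 of 3 tested members fell and in group IId 3 of 6 fell and 1 rose. In group IIe 4 of 6 rose, in group III 3 of 9 rose (WRKY67 among them), and in group IIc 4 of 11 rose and 2 fell. Group I had 0 calls among 10 members with edgeR and no replicate block (2 at an unadjusted p below 0.05, 1 called by DESeq2, 0 by limma-voom), and group IIb had 0 among 3 (2, 1 and 0). These small counts stand beside 11.9% of all tested genes called, 6.38% higher and 5.5% lower. An absence of calls in groups this small is near that share. Whether the groups differ from each other was not tested.

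Group IIa holds 3 close relatives, WRKY18, WRKY40 and WRKY60, whose proteins form homo- and heterodimers and modulate defence and abscisic acid responses. In Mock, WRKY18 and WRKY60 were among the most abundant members of the family, and both were lower in DEX. WRKY18 (AT4G31800, chr4:15382777-15385100, plus strand of TAIR10.1) stood at 49.6, 74.1 and 73.6 CPM in the Mock libraries and at 27.0, 28.0 and 25.6 CPM in the DEX libraries. The DEX values were close to each other and all below the lowest Mock value, a log2 change of -1.29 ± 0.16 (adjusted p = 0.00211). WRKY60 (AT2G25000, chr2:10629662-10631413) stood at 64.9, 63.6 and 35.6 CPM in Mock and at 17.3, 14.7 and 14.4 CPM in DEX. Mock library 3 was the lowest of its group for this gene and still lay above every DEX library, and the log2 change was -1.82 ± 0.23 (adjusted p = 0.00249). WRKY40 (AT1G80840, chr1:30383561-30385499) was far lower, at 0.997, 2.53 and 4.56 CPM in Mock and 2.79, 1.85 and 4.82 CPM in DEX. Its groups overlapped, with a log2 difference of 0.22 ± 0.54 (adjusted p = 0.875). WRKY40 overlaps AT1G80850 on the opposite strand, which fell (-0.76 ± 0.17, adjusted p = 0.0269), and it is not stated whether reads were counted by strand.

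**Figure D2:**
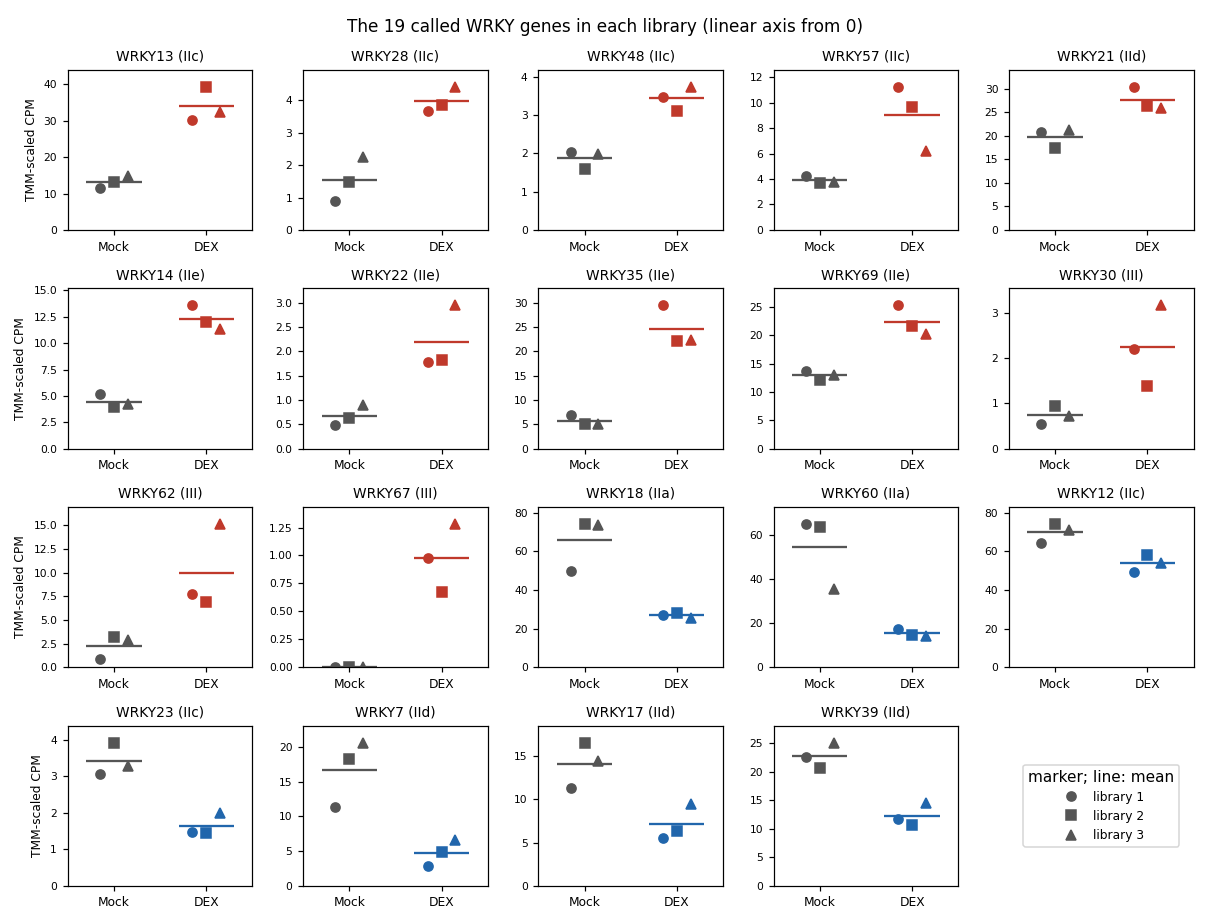
TMM-scaled CPM of the 19 called WRKY genes in each library, 1 panel a gene with its group in brackets, on linear axes that start at 0. Circles, squares and triangles are libraries 1, 2 and 3, grey for Mock and coloured for DEX (red higher, blue lower), and lines are group means. In every panel the 3 DEX points lie on one side of the 3 Mock points.

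Group IIc is the largest of the family here, with 12 members, and holds the 2 best known stem genes. WRKY12 keeps secondary wall formation out of the pith, WRKY13 promotes sclerenchyma development, and both are described as direct regulators of the wall gene NST2. WRKY13 (AT4G39410, chr4:18332606-18334893) stood at 11.5, 13.2 and 14.7 CPM in Mock and at 30.1, 39.3 and 32.5 CPM in DEX. Every DEX library was at least double the highest Mock library, and the log2 change was 1.37 ± 0.14 (adjusted p = 0.000952). WRKY12 (AT2G44745, chr2:18447203-18449093) stood at 64.3, 74.1 and 71.2 CPM in Mock and at 49.1, 58.3 and 54.2 CPM in DEX. The groups did not overlap but were close, with a log2 change of -0.38 ± 0.09 (adjusted p = 0.0439), and the call was lost whichever of the 6 libraries was left out (adjusted p 0.0520 to 0.180). The ratio of WRKY12 to WRKY13 reads was 5.60, 5.61 and 4.83 in Mock and 1.63, 1.48 and 1.66 in DEX. NST2, named for this link and outside the rule for named genes, stood at 22.8, 24.4 and 25.5 CPM in Mock and 26.8, 38.8 and 33.6 CPM in DEX, a log2 difference of 0.45 ± 0.14 that did not pass (adjusted p = 0.0873).

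WRKY23 (AT2G47260, chr2:19404802-19407098) is the member best linked to auxin: in roots it is induced by auxin downstream of IAA14, ARF7 and ARF19 and acts in flavonol synthesis. It stood at 3.06, 3.92 and 3.27 CPM in Mock and at 1.48, 1.44 and 1.99 CPM in DEX. The highest DEX value was under the lowest Mock value, a log2 change of -1.06 ± 0.20 (adjusted p = 0.0139) that no longer passed without Mock library 2 (0.0681) or DEX library 2 (0.0537). Of its 3 upstream genes 1 was called: ARF19, an activating auxin response factor, fell from 29.9, 36.0 and 35.6 CPM to 16.6, 15.9 and 16.3 CPM (-1.06 ± 0.10, adjusted p = 0.000630). ARF7 differed by -0.20 ± 0.09 (adjusted p = 0.231) and IAA14 by -0.38 ± 0.24 (adjusted p = 0.416).

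The other called members of group IIc rose. WRKY57 (AT1G69310, chr1:26054275-26058383), which acts where auxin and jasmonate meet in leaf senescence, stood at 4.22, 3.65 and 3.79 CPM in Mock and 11.2, 9.68 and 6.16 CPM in DEX. DEX library 3 was the lowest of its group and still above Mock, and the log2 change was 1.22 ± 0.23 (adjusted p = 0.0128, and 0.0630 without Mock library 2). WRKY28 (AT4G18170, chr4:10061214-10062893), an activator of the salicylate synthesis gene ICS1, stood at 0.901, 1.47 and 2.24 CPM in Mock and 3.68, 3.87 and 4.42 CPM in DEX. The Mock libraries varied more than the DEX libraries, and the log2 change of 1.36 ± 0.30 (adjusted p = 0.0275) did not pass without DEX library 1, 2 or 3 or without Mock library 2 (0.0548 to 0.116). WRKY48 (AT5G49520, chr5:20090648-20093346), a repressor of basal defence, stood at 2.03, 1.59 and 1.98 CPM in Mock and 3.46, 3.10 and 3.73 CPM in DEX. The log2 change was 0.88 ± 0.17 (adjusted p = 0.0168), and the call was lost without Mock library 2 (0.0795) or DEX library 1 (0.0507). Of the uncalled members of the group, WRKY8 differed by 0.05 ± 0.25, WRKY45 and WRKY75, linked to phosphate supply, by 0.67 ± 0.34 and 1.92 ± 0.81, and WRKY50 and WRKY51, which repress jasmonate responses, by 1.02 ± 0.31 and 0.98 ± 0.72. WRKY50 passed with DESeq2 (adjusted p = 0.0134, in a range of 0.0134 to 0.253 over the alternatives that had no replicate block).

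Group IId members carry a calmodulin-binding stretch, and WRKY7, WRKY11 and WRKY17 restrain basal defence against Pseudomonas. WRKY7 (AT4G24240, chr4:12571538-12573783) stood at 11.4, 18.2 and 20.6 CPM in Mock and at 2.90, 4.86 and 6.54 CPM in DEX. Library 1 was the lowest in both groups, the groups were well apart, and the log2 change was -1.81 ± 0.32 (adjusted p = 0.0110). WRKY39 (AT3G04670, chr3:1266056-1268378), which takes part in heat responses, fell from 22.5, 20.7 and 25.1 CPM to 11.8, 10.6 and 14.5 CPM, a log2 change of -0.89 ± 0.14 (adjusted p = 0.00604). WRKY17 (AT2G24570, chr2:10437353-10439469) stood at 11.3, 16.6 and 14.4 CPM in Mock and 5.52, 6.39 and 9.46 CPM in DEX. Its log2 change was -0.98 ± 0.23 (adjusted p = 0.0313), a call lost without Mock library 2 or 3 or DEX library 1 or 2 (0.0768 to 0.125). WRKY11, its closest relative and the most abundant member of the group, stood at 25.4, 40.4 and 37.3 CPM in Mock and 20.3, 32.1 and 36.8 CPM in DEX, with overlapping groups (-0.21 ± 0.25, adjusted p = 0.706). WRKY15 likewise overlapped (-0.05 ± 0.32, adjusted p = 0.959).

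One member of group IId rose. WRKY21 (AT2G30590, chr2:13033418-13035797) stood at 20.8, 17.5 and 21.3 CPM in Mock and at 30.4, 26.4 and 25.9 CPM in DEX, a log2 change of 0.47 ± 0.11 (adjusted p = 0.0343). The call rested on single libraries: it held without DEX library 3 and was lost without each of the other 5, and with no scaling factor, with adjusted p of 0.0548 to 0.130.

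Group IIe gave the clearest increases. WRKY35 (AT2G34830, chr2:14693696-14696803) stood at 6.85, 5.12 and 5.07 CPM in Mock and at 29.4, 22.2 and 22.3 CPM in DEX. Library 1 was the highest in both groups, the lowest DEX library was well over the highest Mock library, and the log2 change was 2.12 ± 0.17 (adjusted p = 0.000335). WRKY14 (AT1G30650, chr1:10868218-10871297), its closest relative, rose from 5.21, 3.95 and 4.20 CPM to 13.6, 12.0 and 11.3 CPM (1.47 ± 0.14, adjusted p = 0.000840). Both kept their call in all 15 alternative fits. WRKY69 (AT3G58710, chr3:21714911-21716916) stood at 13.7, 12.0 and 13.0 CPM in Mock and 25.3, 21.6 and 20.2 CPM in DEX, a smaller change of 0.79 ± 0.11 (adjusted p = 0.00396). It overlaps the opposite-strand gene AT3G58720, whose own difference was 0.39 ± 0.17 (adjusted p = 0.219) on 600 Mock and 775 DEX reads, beside 1340 and 2325 reads for WRKY69.

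WRKY22 (AT4G01250, chr4:522530-524249) acts with WRKY29 below the MAP kinase cascade triggered by flagellin. It was low, at 0.483, 0.619 and 0.901 CPM in Mock, and stood at 1.78, 1.82 and 2.94 CPM in DEX. The groups were apart on 71 Mock and 229 DEX reads, with a log2 change of 1.69 ± 0.32 (adjusted p = 0.0140, and 0.0691 without Mock library 2). WRKY29 had 18 reads in Mock and 5 in DEX and was not tested. The remaining members of the group were not called, although the DEX values of both lay entirely below Mock. WRKY27 stood at 2.19, 2.80 and 2.27 CPM in Mock and 1.81, 2.05 and 2.02 CPM in DEX (-0.30 ± 0.18, adjusted p = 0.375). WRKY65 stood at 1.38, 1.30 and 2.16 CPM in Mock and 0.279, 1.18 and 1.23 CPM in DEX (-0.86 ± 0.49, adjusted p = 0.368).

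Group III members are mostly tied to salicylic acid, defence and senescence. WRKY62 and WRKY38 are close relatives that repress basal defence, and WRKY30 responds early to pathogens and reactive oxygen. WRKY62 (AT5G01900, chr5:350925-352095) stood at 0.869, 3.15 and 2.83 CPM in Mock and at 7.70, 6.93 and 15.1 CPM in DEX. The libraries varied within both groups without overlap between them, and the log2 change was 2.11 ± 0.48 (adjusted p = 0.0297), lost without Mock library 2 or 3 or DEX library 3 (0.0581 to 0.0653). WRKY30 (AT5G24110, chr5:8153115-8154710) stood at 0.547, 0.942 and 0.721 CPM in Mock and at 2.20, 1.37 and 3.16 CPM in DEX. Its log2 change was 1.60 ± 0.36 (adjusted p = 0.0275), a call that held without DEX library 2 and was lost without each of the other 5 libraries (0.0571 to 0.0858).

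WRKY67 (AT1G66550, chr1:24828502-24829660, plus strand) went from no reads to a small but countable number. It had 0 reads in all 3 Mock libraries and stood at 0.976, 0.671 and 1.28 CPM in DEX, 103 reads in total. Set against a floor of 3 reads over the Mock group, which covers counting error alone, it was at least 34.3-fold higher in DEX (adjusted p = 0.00339). The gene passed the filter on low counts through its DEX libraries alone, and it was not kept where at least 1 CPM in 3 libraries was required. All its reads were uniquely placed. The next gene upstream, AT1G66540, lies 1818 bases away on the same strand and did not move with it, with 545 reads in Mock and 555 in DEX (0.01 ± 0.18, adjusted p = 0.983). The next gene downstream, WRKY64 (AT1G66560), had 0 reads in Mock and 6 in DEX and was not tested.

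The W-box content of the upstream sequences was read from the reference genome, since WRKY genes are known targets of WRKY proteins. A window of 300 bases directly upstream of the annotated gene start was searched on both strands for TTGACC or TTGACT. At least one such W-box was present for 22 of the 52 members (42.3%), beside 32.3% of 27443 genes of the annotation. By response the count was 6 of the 12 genes that rose, 2 of the 7 that fell and 12 of the 29 that were not called. Group III had a W-box in 6 of 10 windows, 4 of them with more than one, and group IIa had none in 3. The auxin response elements TGTCTC and TGTCGG were present in 7 (13.5%) and 4 (7.69%) of the members' windows, beside 13% and 4.91% of all windows, and the G-box CACGTG in 7 (13.5%) beside 7.09%. Among the called genes TGTCTC was found in 1 and TGTCGG in 0. These matches are letters in a window and say nothing of binding.

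The windows of the 3 group III genes that rose and of WRKY17, which fell with 2 W-boxes, are shown to let the elements be seen in place. Each runs 5′ to 3′ on the strand of the gene in TAIR10.1 (RefSeq), ends at the base before the annotated start, and has W-boxes of either strand in capitals (AGTCAA and GGTCAA are TTGACT and TTGACC read on the other strand).
WRKY30 (chr5:8154711-8155010, minus strand): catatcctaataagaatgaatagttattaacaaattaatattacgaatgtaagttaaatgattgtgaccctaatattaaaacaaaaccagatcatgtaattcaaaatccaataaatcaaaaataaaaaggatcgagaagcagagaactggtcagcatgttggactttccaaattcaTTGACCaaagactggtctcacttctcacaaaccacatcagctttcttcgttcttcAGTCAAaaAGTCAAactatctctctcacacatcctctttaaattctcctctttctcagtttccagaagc
WRKY62 (chr5:352096-352395, minus strand): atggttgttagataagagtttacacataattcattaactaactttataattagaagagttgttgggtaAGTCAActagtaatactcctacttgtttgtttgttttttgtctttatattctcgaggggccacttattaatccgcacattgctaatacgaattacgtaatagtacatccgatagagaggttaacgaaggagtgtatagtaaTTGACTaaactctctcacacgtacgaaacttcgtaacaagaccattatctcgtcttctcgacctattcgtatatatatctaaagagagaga
WRKY67 (chr1:24828202-24828501, plus strand): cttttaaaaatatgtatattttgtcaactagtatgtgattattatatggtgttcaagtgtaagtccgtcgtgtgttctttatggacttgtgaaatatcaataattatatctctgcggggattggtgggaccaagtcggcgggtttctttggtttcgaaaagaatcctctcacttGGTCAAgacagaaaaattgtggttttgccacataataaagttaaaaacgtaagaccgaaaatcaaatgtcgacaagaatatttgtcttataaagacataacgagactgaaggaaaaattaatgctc
WRKY17 (chr2:10439470-10439769, minus strand): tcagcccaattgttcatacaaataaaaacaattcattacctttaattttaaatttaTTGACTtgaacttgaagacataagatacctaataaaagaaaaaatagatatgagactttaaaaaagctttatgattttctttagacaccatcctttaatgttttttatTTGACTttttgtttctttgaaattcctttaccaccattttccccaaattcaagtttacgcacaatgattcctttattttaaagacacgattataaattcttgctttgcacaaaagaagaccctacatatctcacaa
WRKY30 held 3 W-boxes, the nearest beginning 61 bases before the gene start, with a pair separated by 2 bases. WRKY62 held 2, at 232 and 91 bases, WRKY67 held 1 at 126 bases, and WRKY17 held 2, at 244 and 136 bases. No W-box of this spelling was in the windows of WRKY18, WRKY60, WRKY13, WRKY23, WRKY7, WRKY39, WRKY14, WRKY22, WRKY35, WRKY57 or WRKY69.

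The remaining group III members included the most abundant gene of the family. WRKY70 (AT3G56400, chr3:20908711-20910623), which links salicylate and jasmonate signalling, stood at 70.5, 201 and 244 CPM in Mock and at 81.2, 179 and 288 CPM in DEX. The groups overlapped almost wholly while library 1 was far below the others in both, and the log2 difference was 0.09 ± 0.54 (adjusted p = 0.952). WRKY54, its close relative and partner in delaying senescence, stood at 19.9, 41.4 and 38.5 CPM in Mock and at 8.98, 16.6 and 22.1 CPM in DEX, a log2 difference of -1.07 ± 0.37 that did not pass (adjusted p = 0.126) and passed with DESeq2 (0.0168, in a range of 0.0168 to 0.352 over the alternatives that had no replicate block). In edgeR with the replicate block, WRKY54 passed (adjusted p = 0.00066). The ratio of WRKY54 to WRKY70 reads was 0.283, 0.206 and 0.158 in Mock and 0.111, 0.0925 and 0.0767 in DEX, with no overlap. WRKY53, which advances senescence, stood at 4.02, 6.77 and 8.14 CPM in Mock and 4.24, 7.86 and 24.7 CPM in DEX. DEX library 3 set its mean (0.96 ± 0.61, adjusted p = 0.425). Of the others, WRKY38 differed by 1.54 ± 0.67, WRKY46 by 0.52 ± 0.17 and WRKY41 by 0.02 ± 0.56, and none passed with edgeR without a replicate block. WRKY46 passed with DESeq2 (adjusted p = 0.0479, in a range of 0.0479 to 0.245 over the alternatives that had no replicate block). WRKY38 passed only with the replicate block.

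WRKY70 was one of a set of members whose libraries differed within both groups. Among 39 tested members with at least 100 Mock reads, the highest library was at least 2-fold over the lowest in both groups in 7 (WRKY33, WRKY40, WRKY45, WRKY53, WRKY54, WRKY62 and WRKY70), beside 2.3% of all tested genes with that depth. WRKY33 (AT2G38470), a group I gene needed for camalexin synthesis, stood at 6.85, 14.9 and 29.9 CPM in Mock and 3.46, 8.44 and 24.4 CPM in DEX, so that the libraries of 1 group differed more than the groups did (-0.51 ± 0.73, adjusted p = 0.761). Each DEX value of WRKY33 lay below the Mock value of the same number. The edgeR fit with a replicate block gave -0.65 (adjusted p = 0.0186). The highest library had the same number in both groups for 29 of 48 tested members, beside 50.4% of all tested genes. Library 3 was the highest in both groups for 18 of 48 tested members, beside 20.6% of all tested genes, and library 1 was the lowest in both for 19, beside 20.1%. Library 3 was highest in both groups in 14 of the 29 members not called and in 4 of the 19 called. A wide spread within groups itself works against a call, so this split is partly built into the test. No such split was made over all genes. What the libraries of one number shared was not tested.

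**Figure D3:**
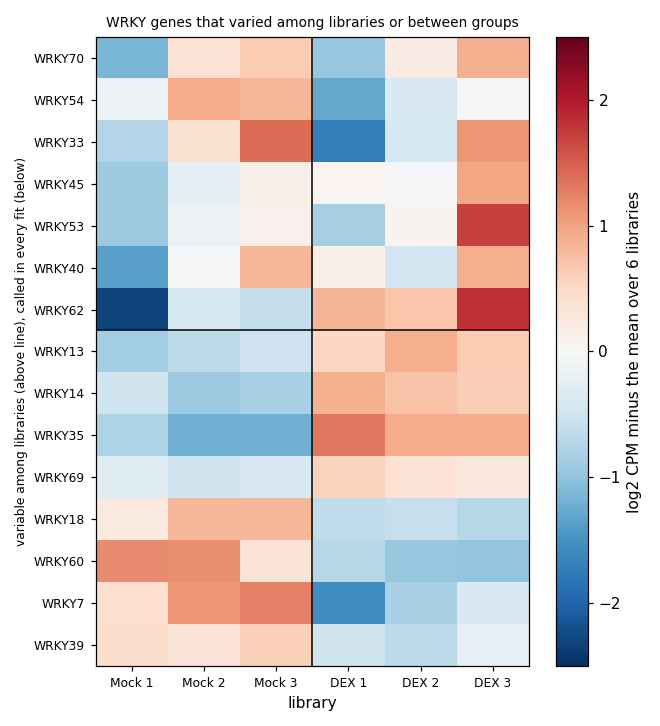
Heat map of 15 WRKY genes (rows) in the 6 libraries (columns), coloured by log2 CPM minus the mean over all libraries of that gene. Above the horizontal line are the 7 genes whose libraries differed at least 2-fold within both groups. In each of them library 1 was the lowest in Mock and library 3 the highest in DEX. The highest Mock library was library 2 for WRKY54 and WRKY62, and the lowest DEX library was library 2 for WRKY40, WRKY45 and WRKY62. Below it are 8 genes called in every alternative fit, in which the change of colour falls at the vertical line between Mock and DEX.

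Group I, the only group with a pair of WRKY domains in each protein, gave no call in the edgeR fit without a replicate block. That fit called 11.9% of all tested genes, so no call in so few genes is near that share. With the block, 2 members were called, beside 20.3% of all tested genes. WRKY3, its most abundant member, which like WRKY4 acts in resistance to necrotrophs, stood at 61.2, 65.6 and 62.6 CPM in Mock and 70.1, 78.4 and 65.5 CPM in DEX (0.18 ± 0.09, adjusted p = 0.294). WRKY20 differed by -0.04 ± 0.08, WRKY2 by 0.05 ± 0.09, WRKY32 by -0.06 ± 0.09 and WRKY1 by -0.16 ± 0.10. The 2 members with an unadjusted p below 0.05 were WRKY25 and WRKY4. WRKY25, a heat response gene, stood at 20.6, 25.7 and 25.4 CPM in Mock and at 30.6, 32.5 and 44.5 CPM in DEX, without overlap (0.58 ± 0.16, adjusted p = 0.0621 with edgeR, 0.0111 with DESeq2 and up to 0.166 in other fits). WRKY4 (0.38 ± 0.13, adjusted p = 0.126) passed when Mock library 3 was left out (0.0394, in a range of 0.0394 to 0.365 over the alternatives that had no replicate block), and it overlaps AT1G13970 on the opposite strand, which rose (1.31 ± 0.17, adjusted p = 0.00249) on 202 Mock and 499 DEX reads. WRKY44, known as TTG2 for its part in trichome and seed coat development, had 32 and 48 reads and differed by 0.59 ± 0.42 (adjusted p = 0.491), and WRKY26 differed by -0.25 ± 0.31.

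Group IIb was low throughout. Its most abundant member, WRKY6, a senescence and phosphate gene, stood at 4.22, 5.18 and 7.37 CPM in Mock and at 7.08, 8.31 and 16.0 CPM in DEX. The groups overlapped (0.90 ± 0.34, adjusted p = 0.161, 0.0459 with DESeq2 and up to 0.382 in other fits). WRKY47 stood at 3.44, 3.06 and 2.86 CPM in Mock and 1.78, 2.17 and 2.34 CPM in DEX, without overlap, and did not pass (-0.57 ± 0.18, adjusted p = 0.0873). WRKY42 differed by 0.52 ± 0.41. Together with WRKY29, the members left untested for want of reads were WRKY31 (14 reads in Mock and 16 in DEX), WRKY43 (1 and 1) and WRKY55 (18 and 43).

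Levels between genes were compared on the deposited RPKM, which divides reads by exon length. In Mock, 20 members were at 10 RPKM or more, 20 lay from 1 to below 10, and 12 were below 1, and the tested members had a median of 4.53 RPKM beside 10.9 for all tested genes. WRKY70 was the highest at 155 ± 82.0 RPKM (SD, n = 3), followed by WRKY12 at 81.1 ± 6.13, WRKY18 at 53.5 ± 11.7, WRKY60 at 45.8 ± 13.6, WRKY3 at 30.3 ± 1.19, WRKY11 at 29.4 ± 6.83 and WRKY1 at 26.1 ± 1.41. Along the whole order, the 3 values of neighbouring genes were apart in 4 cases, one of them WRKY12 over WRKY18, and overlapped in 47. WRKY70 and WRKY12 overlapped because of the low Mock library 1 of WRKY70.

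**Figure D4:**
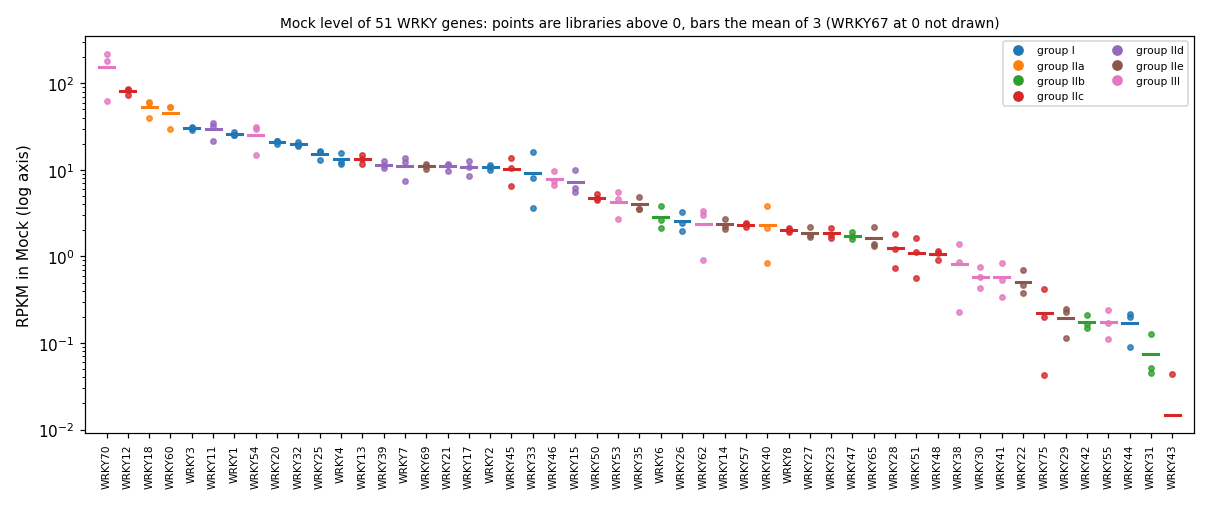
Mock RPKM of 51 WRKY genes in falling order of the mean, on a log axis, coloured by WRKY group. Points are the libraries above 0 and bars are means of 3 libraries, from 155 RPKM for WRKY70 downwards, and WRKY67, at 0 reads, is not drawn.

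The calls were also counted by Mock level. Of the 20 members at 10 RPKM or more, 3 rose and 6 fell, where 11.9% of all tested genes of that level were called, 6.11% higher and 5.75% lower. Of the 20 from 1 to below 10 RPKM, 6 rose and 1 fell (WRKY23), where 13% of all genes were called, 6.93% higher and 6.05% lower. Of the 8 tested members below 1 RPKM, 3 rose (WRKY22, WRKY30 and WRKY67) and none fell, where 8.84% of all genes were called, 5.96% higher and 2.88% lower. All low genes thus leaned to higher calls as well, and whether direction depends on level was not tested. At that level WRKY38, WRKY44, WRKY67 and WRKY75 had all 3 DEX libraries over the limit of the filter and at least 1 Mock library under it, while WRKY41 had the reverse, so these counts lean to genes that are higher in DEX and support nothing on their own.

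Close relatives were compared through the ratio of their reads in each library, which removes what a library does to both. The 3 DEX ratios lay apart from the 3 Mock ratios in 12 of 23 pairs. Most of these 12 pairs hold a member called above, so the count largely restates those calls. No share over other gene pairs was made to set beside it. With 3 against 3 the exact permutation test (two-sided) cannot go below p = 0.1, and the smallest value adjusted over the 23 pairs was 0.192, so none passed. WRKY7 to WRKY15 went from 1.70, 2.47 and 1.70 to 0.540, 0.579 and 0.564. WRKY22 to WRKY27 went from 0.226, 0.225 and 0.401 to 0.985, 0.891 and 1.46. Of the pairs in which both genes were called in one direction, WRKY18 to WRKY60 ratios of 0.765, 1.16 and 2.06 in Mock overlapped those of 1.56, 1.90 and 1.78 in DEX, whereas WRKY14 to WRKY35 moved from 0.761, 0.771 and 0.828 to 0.462, 0.542 and 0.509. WRKY8 to WRKY28, WRKY11 to WRKY17, WRKY18 to WRKY40, WRKY25 to WRKY26, WRKY45 to WRKY75, WRKY65 to WRKY69 and WRKY22 to WRKY29 were the other pairs apart, beside WRKY12 to WRKY13 and WRKY54 to WRKY70 above. Ratios were made with 0.5 reads added to each count. This weighs on pairs with few reads: WRKY29 had 23 over all libraries and WRKY75 had 87.

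Genes that act with or below WRKY proteins were read from lists of textbook members, and their counts are to be set against the 11.9% of all tested genes that were called and the 6.38% that were higher. Of 7 tested VQ proteins, small partners that bind the WRKY domain, 1 rose: JAV1, a repressor of jasmonate defence, went from 8.59, 9.60 and 8.94 CPM to 19.9, 22.0 and 30.8 CPM (1.42 ± 0.17, adjusted p = 0.00201). Of 10 genes of the MAP kinase module, 1 rose: MKK5, the kinase above MPK3 and MPK6, changed by 0.65 ± 0.15 (adjusted p = 0.0297), a call lost without Mock library 2 or 3 or DEX library 1 or 2 (0.0798 to 0.122). Of 14 tested defence targets and salicylate genes 3 rose, the flagellin-induced kinase gene FRK1 (1.08 ± 0.19, adjusted p = 0.0114) and the salicylate synthesis genes PBS3 (1.44 ± 0.32, adjusted p = 0.0268) and EDS5 (0.88 ± 0.22, adjusted p = 0.0395). FRK1 was lost without Mock library 2 (0.0507), PBS3 without each Mock library and DEX library 1 (0.0522 to 0.0756), and EDS5 without Mock library 2 or 3 or DEX library 1 or 2 (0.0681 to 0.153), so that 0 of the list were called without Mock library 2. Also on this list, and outside the rule for named genes, ICS1 was not called (0.48 ± 0.26, adjusted p = 0.340). SARD1 (-0.32 ± 0.28), CBP60G (-0.38 ± 0.37) and EDS1 (-0.19 ± 0.21) were not called either. Of the 14 tested genes, 10 had a difference above 0. PR1, the classic salicylate marker, was too low to test. Of 8 tested development and nutrient targets 1 rose, the senescence regulator ORE1 (1.68 ± 0.35, adjusted p = 0.0219), a call lost without Mock library 1 (0.0681) or 2 (0.0740). The called shares were thus 14.3% for VQ proteins, 10% for the MAP kinase module, 21.4% for defence and salicylate and 12.5% for development and nutrients, 1 to 3 genes a list and for 3 of these lists near the share over all genes. The medians of the 4 lists were 0.09, 0.16, 0.49 and 0.68 on the log2 scale.

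A list of touch and wound genes was read because the plants had been handled and dipped, in Mock as in DEX. It was chosen with earlier results of these data known, so its share is a description and no test. Of 13 tested genes 6 rose (46.2%, beside 6.38% of all tested genes) and 0 fell, with a median of 1.32, and the genes that rose were jasmonate genes: JAZ7 (4.65 ± 0.29, adjusted p = 0.000114), JAZ8 (3.27 ± 0.26, adjusted p = 0.000335), JAZ10 (4.24 ± 0.41, adjusted p = 0.000796) and LOX3 (2.67 ± 0.33, adjusted p = 0.00232), with JAZ5 and JAZ1. JAZ genes encode repressors that jasmonate signalling itself induces, and LOX3 encodes an enzyme of jasmonate synthesis. The other 7 tested genes, the touch genes TCH2, TCH3 and TCH4 with ZAT10, ZAT12, CBF2 and CBF3, were not called. The summed level of the list was 262 to 291 CPM in Mock and 883 to 1126 CPM in DEX, and its part in the WRKY results was not tested.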

How the data were processed

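Per the labels and methods of the study, single-end reads from a strand-marking library were aligned to TAIR10 by the authors with CLC Genomics Workbench. The deposited tables hold counts per gene (total gene reads, unique gene reads and exon reads) and RPKM made by the authors from exon reads, exon length and library total. Use of strand in counting was not stated. Rows without a gene name held 0.0930 to 0.135% of reads and were left out.

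Total gene reads of all 33316 genes were fitted with edgeR 4.0.16 (R 4.3.3): filterByExpr (19598 genes kept), TMM scaling, quasi-likelihood F test (two-sided) of DEX against Mock without a block, Benjamini-Hochberg adjustment over all kept genes, calls at adjusted p below 0.05. CPM are TMM-scaled. DESeq2 1.42.0 and limma-voom 3.58.1, other scalings, filters and read columns, a replicate block and leaving out each library were alternatives. The 6 libraries held 30564459 to 37761257 reads, and a floor of 3 reads covers counting error only. The fit was tested on simulated data, with 50 genes above 1 CPM changed by each fold. It recovered 26% of those changed 1.5-fold, 76% at 2-fold, 98% at 4-fold and 100% at 8-fold, with 13 false calls. Small changes are thus often missed, and a gene not called may still have changed.

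Named are called members, the most abundant member of each group, WRKY12, WRKY13, WRKY23 and WRKY44, genes of close pairs, untested members and up to 4 called genes a list. Members and lists were chosen with earlier results of these data known. Lists, WRKY groups and gene roles come from textbook knowledge. All 52 identifiers matched the RefSeq TAIR10.1 annotation, which gave positions and upstream sequence, and 9 members overlap an opposite-strand gene. Figures were drawn with matplotlib 3.10.9.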

Additional observations from a re-analysis of the deposited data

How the results depend on the processing

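No called member reversed direction in any alternative. Among the single genes, leaving out a library ended 33 calls in all, spread over 10 of the 19 called members, while other scalings ended 1, that of WRKY21 with library totals alone. DESeq2 called 1 gene of group I, 5 of group III, 1 of group IIb and 3 of the development and nutrient list, and over all genes DESeq2 called 1696 higher and 1292 lower. Leaving out 1 library gave 615 to 1198 genes higher and 690 to 1000 lower among all genes, 5 to 10 members higher and 4 to 6 lower. Called members then numbered 0 to 1 in group I, 1 to 3 in group III, 1 to 5 in group IIc and 2 to 4 in group IId, and called list genes 0 to 1 for the MAP kinase module, 0 to 4 for defence and salicylate and 0 to 2 for development and nutrients. The number of members at 10 RPKM or more was 18 to 21. Deviations of same-numbered libraries correlated at 0.516, 0.019 and 0.506 for libraries 1, 2 and 3. Those of Mock 1 with DEX 3 and of Mock 3 with DEX 1 correlated at -0.536 and -0.468. Libraries 1 and 3 thus shared deviations across the groups, library 2 did not, and the sources do not say what a number marks. With the replicate block, 2258 genes were higher (11.5% of those tested) and 1722 lower (8.79%), and 18 members higher and 9 lower, with no call lost and 8 added: WRKY54 (adjusted p = 0.00066), WRKY6 (0.00319), WRKY25 (0.00723), WRKY50 (0.0161), WRKY75 (0.0185), WRKY33 (0.0186), WRKY38 (0.0202) and WRKY45 (0.0251). The block gave 2 calls in group I, 5 in group III and 1 in group IIb, and in the lists 2 for VQ partners, 3 for the MAP kinase module, 6 for defence and salicylate and 4 for development and nutrients. Depth limited the 12 members below 1 RPKM, of which 4 could not be tested.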
